A study of Caenorhabditis elegans with 20 samples.

Results

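The comparison described here set the *bcat-1(hh58)* mutant directly against the *ivd-1(tm6784)* mutant of the nematode *Caenorhabditis elegans*. The samples were chosen by their strain labels alone: 4 samples of each strain, 8 of the 20 in the series, each sequenced as bulk RNA from whole worms. All 20 samples were day 1 adults grown at 20 °C on *Escherichia coli* OP50, and the other 12 were *hecd-1(tm2371)*, wild-type worms and a strain with both alleles, *ivd-1(tm6784); bcat-1(hh58)*, called the double mutant below, with 4 of each. The wild-type and double mutant values are given beside those of the single mutants where they help to place a level. The *hh58* allele was made by genome editing and carries an early stop codon in the first exon. The study calls it a hypomorphic loss of function, and holds a start codon further downstream likely to explain its viability. In that study *bcat-1(hh58)* worms had fewer viable offspring, reached adulthood later and laid fewer eggs that hatched. The *tm6784* allele came from a deletion library and was treated by the study as a loss of function. Both are germline alleles present in every cell, and the strains were outcrossed. Each gene is represented by a single allele, and neither single mutant strain carries the other allele. The number of independent lines per allele is not given. The 4 samples of a strain came from independent experiments. Synchronization was timed to the generation time of each strain, so a strain difference and a remaining difference in age cannot be told apart. In whole worms, fewer cells of a type and less RNA per cell cannot be told apart either.

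Leucine, isoleucine and valine are broken down by a common first step, in which the branched-chain aminotransferase BCAT-1 makes the branched-chain α-ketoacids. The branched-chain ketoacid dehydrogenase complex then makes the acyl-CoA esters, after which the routes part. IVD-1, isovaleryl-CoA dehydrogenase, acts only on the leucine route, which ends in acetyl-CoA and the ketone body acetoacetate, while the valine and isoleucine routes run on towards propionyl-CoA. A block at *bcat-1* thus lies at the first step of the breakdown of all 3 amino acids, and a block at *ivd-1* lies after the ketoacids and on 1 route. The comparison addresses which transcripts part worms with these blocks from each other.

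Gene levels were deposited as FPKM, a fragment count scaled to transcript length and library size, and 15957 of the 46284 listed genes passed the low-value filter, which asked for 0.5 FPKM in at least 4 of the 20 samples. Differences are log2 fold changes on the log2(FPKM + 0.5) scale, positive where the level was higher in *bcat-1(hh58)*, with the standard error (SE) of the limma fit. Adjusted p-values are limma's with Benjamini-Hochberg correction over all 15957 genes, and a gene was called at 0.05 or less. On this rule 3110 genes (19.5% of those tested) differed between the single mutants, 2107 (13.2%) higher in *bcat-1(hh58)* and 1003 (6.29%) higher in *ivd-1(tm6784)*. The 4 values of each strain did not overlap for 3158 genes (19.8%). A difference of at least 2-fold was found for 528 called genes (3.31%), 412 of them (2.58%) higher in *bcat-1(hh58)* and 116 (0.727%) higher in *ivd-1(tm6784)*. The balance of small differences depended on the scaling: 67.7% of the calls were higher in *bcat-1(hh58)* as deposited, 48.7% after median-of-ratios scaling and 48.8% after quantile normalization, which moved the log2 fold changes by medians of -0.0749 and -0.112. The median over all tested genes was 0.047 as deposited, and the medians of gene lists below are to be read against it. In the plot of mean levels the genes of large difference lie on both sides of the diagonal.

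**Figure D1:**
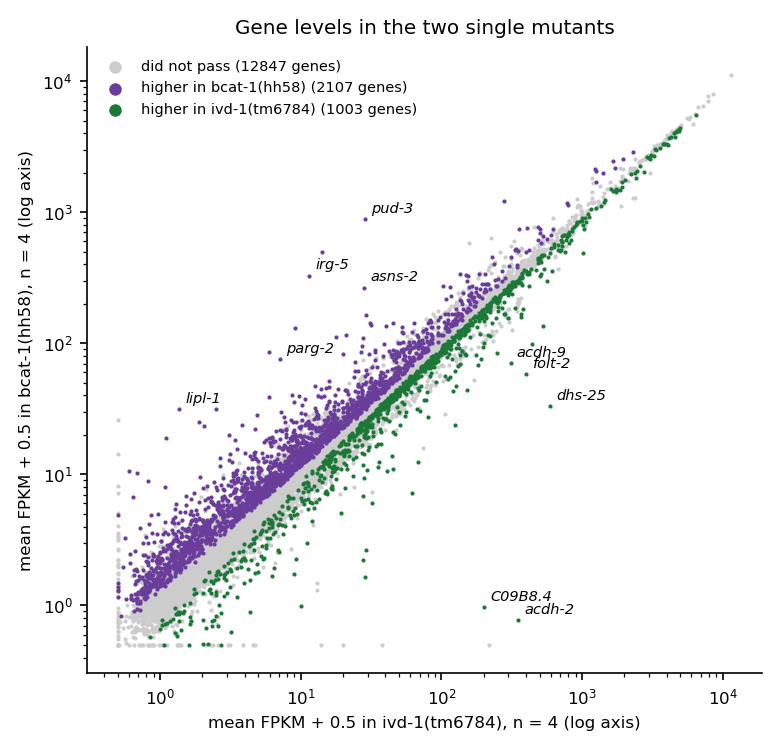
Mean FPKM + 0.5 of each of the 15957 tested genes in *bcat-1(hh58)* (vertical) against *ivd-1(tm6784)* (horizontal), 4 samples each, log axes. The 2107 genes called higher in *bcat-1(hh58)* and the 1003 called higher in *ivd-1(tm6784)* are coloured, and *acdh-2* and *C09B8.4* lie farthest below the diagonal.

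The 8 samples parted by strain along the first principal component (34.2% of the variance). The second (28.7%) spread the samples within strains, with *bcat-1(hh58)* replicates 2 and 3 at its ends and *ivd-1(tm6784)* replicate 2 beside replicate 3. Gene groups tied to sperm, yolk, embryos, cuticle and muscle moved along this axis, and counts for them are therefore also given without these 3 samples. Without them 2409 genes were called, 1724 and 685 in the respective directions.

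The mutated genes were compared first. The *bcat-1* transcript (X:12877480-12880328 in WBcel235) was at 214, 197, 207 and 218 FPKM in *bcat-1(hh58)* and 209, 228, 195 and 210.2 FPKM in *ivd-1(tm6784)*. The values overlapped fully, and the log2 fold change was -0.0092 ± 0.11 (adjusted p = 0.968). Both single mutants were above the wild type, which had 135 ± 10.3 FPKM (mean ± SD, n = 4). The level of this transcript thus did not mark the *hh58* allele. The *ivd-1* transcript (IV:5086856-5088864) was at 126.3, 127, 127 and 122.6 FPKM in *bcat-1(hh58)* and 149, 162, 153 and 157 FPKM in *ivd-1(tm6784)*. All 4 samples of the strain that carries the *ivd-1* lesion were higher, with a log2 fold change of -0.30 ± 0.048 (adjusted p = 0.00028). The wild type had 217 ± 11.8 FPKM and the double mutant 62.5 ± 3.02 FPKM, so both single mutants lay between them. Gene-level FPKM averages over the whole transcript and does not show the lesion itself.

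Enzymes of branched-chain amino acid breakdown were lower in the *bcat-1(hh58)* strain. Of 13 genes of the pathway measured, 11 were called higher in *ivd-1(tm6784)* and 0 were lower, with a median log2 fold change of -0.28 and all 13 values negative as deposited. Without single samples the count lay between 9 and 12, and it was 10 without the 3 samples named above. The shared complex differed modestly. *dbt-1*, its transacylase subunit, was at 90.4, 93.7, 92.0 and 91.5 FPKM in *bcat-1(hh58)* and 122, 132, 122 and 131 FPKM in *ivd-1(tm6784)*, the lowest *ivd-1(tm6784)* value lying above the highest *bcat-1(hh58)* value, with a log2 fold change of -0.46 ± 0.036 (adjusted p = 1.36e-07). The other subunits *bckd-1A*, *bckd-1B* and *dld-1* differed by -0.28, -0.17 and -0.20. On the leucine route beyond IVD-1, *mccc-1*, a subunit of methylcrotonyl-CoA carboxylase, differed by -0.27 ± 0.035 (adjusted p = 3.52e-05), and *Y71G12B.10*, a 3-hydroxymethylglutaryl-CoA lyase homologue, missed the threshold at -0.13 ± 0.048 (adjusted p = 0.0633). *acdh-3*, an acyl-CoA dehydrogenase of the list, was called at -0.15 ± 0.0465 (adjusted p = 0.0255), with overlapping values. That call was lost under 7 of the alternatives, among them leaving out *bcat-1(hh58)* replicate 1 or 3.

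The enzymes of the valine route showed larger values. *acdh-9*, an acyl-CoA dehydrogenase related to the isobutyryl-CoA enzyme (II:846864-848603), was at 70.3, 76.0, 66.0 and 67.4 FPKM in *bcat-1(hh58)* and 298, 291, 338 and 312 FPKM in *ivd-1(tm6784)*. Every *ivd-1(tm6784)* sample lay far above every *bcat-1(hh58)* sample, and the log2 fold change was -2.14 ± 0.078 (adjusted p = 3.03e-12). The wild type, at 129 ± 7.29 FPKM, lay between the mutants, and the double mutant, at 79.0 ± 9.16 FPKM, lay near *bcat-1(hh58)*. *B0250.5*, a 3-hydroxyisobutyrate dehydrogenase homologue, was at 94.4, 99.0, 85.2 and 92.3 FPKM in *bcat-1(hh58)* and 192, 202.5, 203 and 198 FPKM in *ivd-1(tm6784)*. Again the groups were apart, at -1.098 ± 0.044 (adjusted p = 7.91e-12). The enoyl-CoA hydratase *ech-6* was at 315, 316, 264 and 298 FPKM in *bcat-1(hh58)* and 580.1, 638, 454 and 591 FPKM in *ivd-1(tm6784)*, and *hach-1*, the 3-hydroxyisobutyryl-CoA hydrolase, was at 105, 108, 90.2 and 97.5 FPKM in *bcat-1(hh58)* and 221, 216, 162 and 200 FPKM in *ivd-1(tm6784)*. Both were lowest in replicate 3 of each strain, yet no value of one strain reached the other, with log2 fold changes of -0.91 ± 0.11 (adjusted p = 1.72e-05) and -0.99 ± 0.11 (adjusted p = 9.42e-06). For these 2 genes the wild type was above both mutants, at 727 ± 64.8 and 357 ± 51 FPKM. *alh-8*, methylmalonate semialdehyde dehydrogenase, differed by -0.62 ± 0.072 (adjusted p = 1.09e-05), with 495 FPKM in *bcat-1(hh58)* and 758 FPKM in *ivd-1(tm6784)*.

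Propionyl-CoA is used either by the vitamin B12-dependent canonical pathway or by a B12-independent shunt, and the genes of these pathways split. The shunt enzyme *acdh-1*, which acts on propionyl-CoA, was at 572, 561, 335 and 475 FPKM in *bcat-1(hh58)* and 1061, 1130, 798 and 1084 FPKM in *ivd-1(tm6784)*. Replicate 3 was the lowest of each strain and the groups did not overlap, with a log2 fold change of -1.08 ± 0.20 (adjusted p = 0.00107). *hphd-1*, a later shunt step, was at 131, 121, 85.4 and 116 FPKM in *bcat-1(hh58)* and 242, 249, 168 and 228 FPKM in *ivd-1(tm6784)*. It differed by -0.96 ± 0.15 (adjusted p = 0.000182). For both, the wild type was highest, at 1298 ± 70.3 and 409 ± 38.9 FPKM. The canonical genes differed little: *mmcm-1*, the mutase, was called at -0.14 ± 0.046 (adjusted p = 0.035), while *pcca-1* and *pccb-1*, the carboxylase subunits, did not pass at 0.10 and 0.13. The *mmcm-1* call was lost under 7 of the alternatives, among them leaving out *bcat-1(hh58)* replicate 1 or 3. The receptors *nhr-10* and *nhr-68*, which switch on the shunt, did not pass at 0.14 and -0.035, and *nhr-114* had -0.62 (limma adjusted p = 0.06). In all, 4 of the 12 genes of the list (33.3%) were higher and 0 lower in *ivd-1(tm6784)*, against 6.29% and 13.2% of all tested genes, with a median of -0.09. *alh-8*, described above, is also on this list and is 1 of these 4. The count was 3 without the 3 samples named above.

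**Figure D2:**
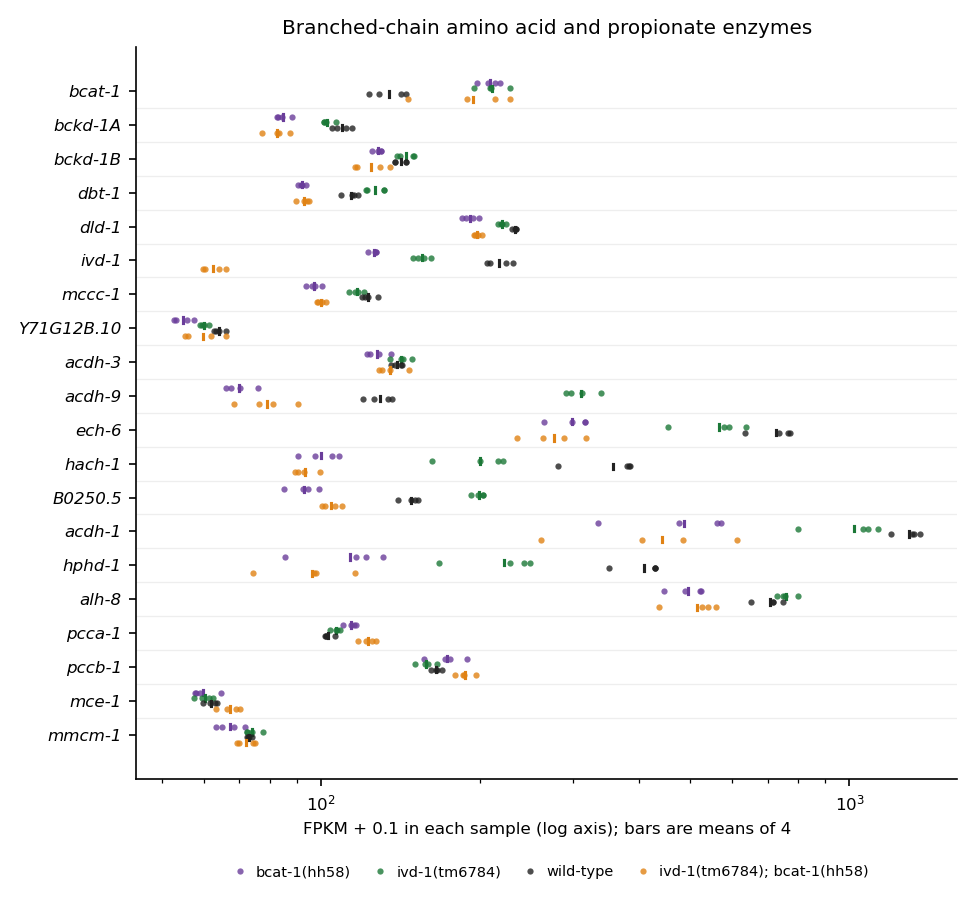
FPKM + 0.1 in each sample (log axis) for enzymes of branched-chain amino acid breakdown and of the propionate pathways in both single mutants, the double mutant and wild type, with bars at the means of 4 samples. The strains part widely at *acdh-9* (means 69.9 and 309.9 FPKM) and not at *bcat-1* (means 209 and 210.4 FPKM).

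The genes with the largest differences were named by a fixed rule: called, protein-coding, not overlapping between the strains, at a mean of at least 5 FPKM in the higher strain, and no more than 3 of a name family, the 15 farthest in each direction. All 30 kept their call under every alternative run. Those higher in *ivd-1(tm6784)* were led by *acdh-2*, an acyl-CoA dehydrogenase (II:5544778-5547492, overlapping *ins-13* on the same strand). It was at 0.192, 0.466, 0.221 and 0.226 FPKM in *bcat-1(hh58)* and 339.6, 363.2, 332 and 361 FPKM in *ivd-1(tm6784)*. The gene was near the bottom of the range in every *bcat-1(hh58)* sample and among the well-expressed genes in every *ivd-1(tm6784)* sample, at -8.83 ± 0.20 (adjusted p = 3.39e-15). The wild type had 50.8 ± 14.2 FPKM and the double mutant 5.02 ± 1.67 FPKM.

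*C09B8.4*, known by its clone name (X:6018442-6019936), was at 0.444, 0.624, 0.289 and 0.521 FPKM in *bcat-1(hh58)* and 193, 208, 186 and 218 FPKM in *ivd-1(tm6784)*. It showed the same arrangement of samples, at -7.71 ± 0.30 (adjusted p = 5.72e-12), with 18.2 ± 6.97 FPKM in the wild type and 4.76 ± 2.22 FPKM in the double mutant. *dhs-25*, a short-chain dehydrogenase (X:1486532-1489326), was at 32.0, 31.4, 34.8 and 32.7 FPKM in *bcat-1(hh58)* and 627, 579, 599.5 and 582 FPKM in *ivd-1(tm6784)*. Replicates agreed closely within each strain, at -4.17 ± 0.12 (adjusted p = 1.23e-13), and the wild type (322 ± 60.1 FPKM) stood nearer to *ivd-1(tm6784)*. *C05C10.3*, a homologue of the succinyl-CoA:3-ketoacid transferase that activates acetoacetate (II:9934398-9936893, overlapping *pho-11* on the other strand), was at 102, 102, 91.9 and 95.8 FPKM in *bcat-1(hh58)* and 433, 472, 431 and 441 FPKM in *ivd-1(tm6784)*. The strains were again far apart, at -2.18 ± 0.064 (adjusted p = 1.23e-13), with the wild type between them at 208 ± 18 FPKM.

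The remaining genes of this direction included enzymes and carriers of small molecules. The folate transporter *folt-2* was at 65.8, 62.9, 42.03 and 59.2 FPKM in *bcat-1(hh58)* and 418, 418, 345 and 417 FPKM in *ivd-1(tm6784)*. Replicate 3 was the lowest of each strain, and the log2 fold change was -2.80 ± 0.13 (adjusted p = 5.49e-11). The insulin-like peptide *ins-12* was at 2.50, 3.38, 1.51 and 1.30 FPKM in *bcat-1(hh58)* and 30.9, 25.6, 28.4 and 30.5 FPKM in *ivd-1(tm6784)*, a level in *bcat-1(hh58)* like that of the wild type (2.57 ± 0.968 FPKM), at -3.52 ± 0.28 (adjusted p = 1.46e-07). *lbp-8*, a lysosomal lipid-binding protein, was at 1.39, 1.41, 1.16 and 1.01 FPKM in *bcat-1(hh58)* and 9.32, 8.30, 7.84 and 8.45 FPKM in *ivd-1(tm6784)*, low in both strains but never overlapping, at -2.37 ± 0.21 (adjusted p = 4.33e-07). The glucuronosyl transferases *ugt-53* and *ugt-63* differed by -4.16 and -2.42, the short-chain dehydrogenase *dhs-14* by -2.46, and the methyltransferase gene *rips-1*, which overlaps *cysl-3* on the other strand, by -3.13. *Y49G5A.1*, *C17C3.1* and *F59A7.2*, known by clone names, differed by -3.71, -2.39 and -2.06. Some of these genes lie close together on the chromosome. *acdh-2*, *ins-12* and *C17C3.1* sit within the stretch II:5544778-5575006, and *C17C3.15*, which overlaps *C17C3.1* on the same strand so that their reads may be shared, differed by -1.57. *sur-5*, similar to acetoacetyl-CoA synthetases, and *vwa-8*, a mitochondrial ATPase, were chosen after their values were seen. *sur-5* was at 42.9, 43.4, 43.9 and 45.2 FPKM in *bcat-1(hh58)* and 151, 147, 160.3 and 151 FPKM in *ivd-1(tm6784)*, and *vwa-8* had means of 13.3 and 44.4 FPKM. Both parted the strains without overlap, at -1.78 ± 0.07 (adjusted p = 5.72e-12) and -1.70 ± 0.075 (adjusted p = 2.83e-11).

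Genes higher in *bcat-1(hh58)* were led by a cluster on chromosome V. *pud-4* (V:2326678-2327282), of a family named for proteins upregulated in *daf-2* insulin receptor mutants, was at 509, 718, 331 and 429 FPKM in *bcat-1(hh58)* and 17.8, 14.01, 11.3 and 11.6 FPKM in *ivd-1(tm6784)*. Its neighbour *pud-3* (V:2324634-2325152) was at 836, 1279, 648 and 754 FPKM in *bcat-1(hh58)* and 38.6, 23.2, 29.96 and 20.8 FPKM in *ivd-1(tm6784)*. Replicate 2 was the highest and replicate 3 the lowest of *bcat-1(hh58)* for both, and the log2 fold changes were 5.097 ± 0.44 (adjusted p = 3.42e-07) and 4.93 ± 0.49 (adjusted p = 2.08e-06). The double mutant was also high, at 686 ± 55.1 and 1211 ± 125 FPKM, and the wild type stayed at 21.7 ± 10.2 and 50.8 ± 24 FPKM. *pud-1.2* beside them, chosen after its values were seen, was at 1282, 1661, 997 and 931 FPKM in *bcat-1(hh58)* and 339.6, 298, 220.0 and 262 FPKM in *ivd-1(tm6784)*, with a log2 fold change of 2.098 ± 0.38 (adjusted p = 0.000841). The family has close copies between which reads may be divided, so the split among its members is uncertain.

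*irg-5*, an infection response gene (V:13737010-13738474), was at 399.7, 219.7, 346 and 345 FPKM in *bcat-1(hh58)* and 9.27, 14.3, 9.44 and 10.9 FPKM in *ivd-1(tm6784)*. Every *bcat-1(hh58)* sample was many times above every *ivd-1(tm6784)* sample, at 4.82 ± 0.30 (adjusted p = 4.77e-09). *lipl-1*, a lysosomal lipase (V:12919986-12921692), was at 35.4, 44.2, 19.9 and 23.9 FPKM in *bcat-1(hh58)* and 0.593, 1.28, 0.696 and 0.908 FPKM in *ivd-1(tm6784)*, with no overlap, at 4.47 ± 0.33 (adjusted p = 4.8e-08). *mtl-1*, a metallothionein that binds heavy metals, was at 25.2, 43.4, 13.2 and 17.3 FPKM in *bcat-1(hh58)* and 1.40, 1.25, 1.004 and 1.86 FPKM in *ivd-1(tm6784)*. Replicates 1 and 2 were the higher ones in *bcat-1(hh58)*, and the log2 fold change was 3.63 ± 0.30 (adjusted p = 2.08e-07). The wild type of all 3 was low, at 6.24 ± 1.52, 1.21 ± 0.671 and 1.98 ± 0.805 FPKM.

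*asns-2*, an asparagine synthetase (X:8748434-8750941), was at 343, 167, 301 and 251.1 FPKM in *bcat-1(hh58)* and 27.6, 33.8, 21.7 and 27.6 FPKM in *ivd-1(tm6784)*. Replicate 2 was the lowest of *bcat-1(hh58)* and still several times above the highest of *ivd-1(tm6784)*, at 3.21 ± 0.27 (adjusted p = 2.51e-07). Its paralogue *asns-1* did not pass the test, at 0.36 ± 0.27 (adjusted p = 0.387). *parg-2*, a poly(ADP-ribose) glycohydrolase (IV:8712408-8715132), was at 98.5, 37.7, 93.9 and 69.6 FPKM in *bcat-1(hh58)* and 4.82, 8.27, 8.86 and 4.53 FPKM in *ivd-1(tm6784)*. It was ordered, with the wild type at 0.333 ± 0.198 FPKM, *ivd-1(tm6784)* above it and *bcat-1(hh58)* highest, the mutants differing by 3.37 ± 0.29 (adjusted p = 3.8e-07). *argk-1*, an arginine kinase, and *cth-1*, a cystathionine gamma-lyase, are neighbours on chromosome V. *argk-1* was at 45.8, 18.9, 49.9 and 39.9 FPKM in *bcat-1(hh58)* and 4.34, 7.02, 3.90 and 6.36 FPKM in *ivd-1(tm6784)*, and *cth-1* had means of 71.7 and 23.7 FPKM. Replicate 2 was the lowest of *bcat-1(hh58)* for both, at 2.67 ± 0.28 (adjusted p = 3.49e-06) and 1.55 ± 0.17 (adjusted p = 4.97e-06). The others of this direction were *dod-3* (3.96), *F55G11.4* (3.75), *C04A11.5* (3.56), *cng-1* (3.47, overlapping *F14H8.8* on the other strand), *R05H10.7* (3.37), *irg-4* (2.69) and the acid sphingomyelinase *asm-3* (2.55).

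**Figure D3:**
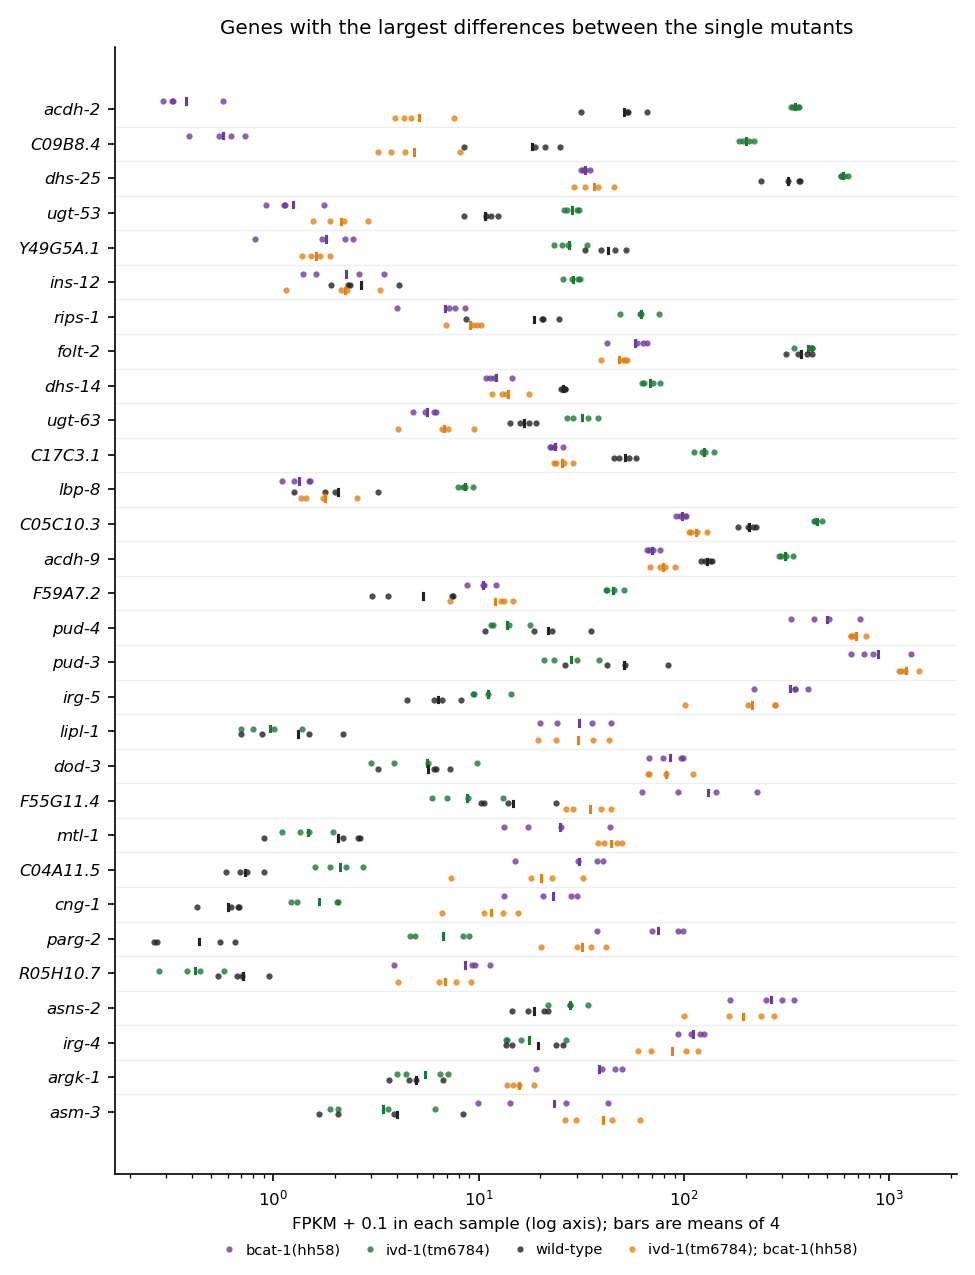
FPKM + 0.1 in each sample (log axis) of the 15 genes with the largest differences in each direction, with bars at the means of 4 samples. The double mutant lies near *bcat-1(hh58)* at *dhs-25* (32.8, 597 and 36.4 FPKM on average in *bcat-1(hh58)*, *ivd-1(tm6784)* and the double mutant) and above it at *acdh-2* (0.276, 349 and 5.02 FPKM).

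The strains that were not part of the contrast placed these levels. Of the 116 genes higher in *ivd-1(tm6784)* by 2-fold or more, the mean of the double mutant lay nearer to *bcat-1(hh58)* for all but 4 (96.6%). With the *ivd-1(tm6784)* mean set to 0 and the *bcat-1(hh58)* mean to 1, the median position of the double mutant was 1.01. The wild type mean lay between the single mutants for 86 of these 116 genes. The 412 genes higher in *bcat-1(hh58)* were placed otherwise: the wild type mean was nearer to *ivd-1(tm6784)* for 395 (95.9%) and below both mutants for 316, and the double mutant was nearer to *bcat-1(hh58)* for 215 and to *ivd-1(tm6784)* for 197, at a median position of 0.526. The *hecd-1(tm2371)* mean was placed much like the wild type for these 412, nearer to *ivd-1(tm6784)* for 383 (93%) and below both mutants for 295. For the 116 it was nearer to *bcat-1(hh58)* for 70 and to *ivd-1(tm6784)* for 46. Both sets of genes were chosen on the means that set the positions 0 and 1, and no share over all tested genes is given beside them. These positions describe means on the log2(FPKM + 0.5) scale and were not tested.

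Mitochondrial genes were lower in *bcat-1(hh58)* by a small and even amount. Of 41 nuclear-encoded respiratory chain genes, 33 were called higher in *ivd-1(tm6784)* and 0 were lower, with a median of -0.19. All 41 values were negative as deposited. *nuo-5*, a complex I subunit, was at 110.2, 107, 127 and 114.3 FPKM in *bcat-1(hh58)* and 142, 150.4, 146 and 138 FPKM in *ivd-1(tm6784)*, without overlap, at -0.33 ± 0.043 (adjusted p = 3.54e-05). *gas-1*, another complex I subunit, differed by -0.33 ± 0.073 (adjusted p = 0.00395). Of 65 mitochondrial ribosomal proteins, 45 were higher in *ivd-1(tm6784)* and 0 were lower, with a median of -0.18. *mrps-23* was at 68.1, 70.5, 72.5 and 81.2 FPKM in *bcat-1(hh58)* and 86.4, 96.4, 99.97 and 95.7 FPKM in *ivd-1(tm6784)*, without overlap, at -0.37 ± 0.053 (adjusted p = 9.42e-05). The summed FPKM of the respiratory chain list ranged from 15670 to 16810 in *bcat-1(hh58)* and from 18320 to 19240 in *ivd-1(tm6784)*, the wild type standing at 18650 to 19340. The directions held under both other scalings, with medians of -0.27 and -0.18 for the respiratory chain. Without the 3 samples at the ends of the second component the counts were 19 and 35, and without *ivd-1(tm6784)* replicate 2 the respiratory chain count was 22.

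The mitochondrial chaperonin *hsp-60* moved likewise, at 238, 243, 229 and 243 FPKM in *bcat-1(hh58)* and 308, 331, 317 and 315 FPKM in *ivd-1(tm6784)*. The groups did not overlap, at -0.41 ± 0.036 (adjusted p = 3.8e-07), and 4 of the 9 genes of the mitochondrial unfolded protein response were higher in *ivd-1(tm6784)* and 0 were lower, although the median of the list was 0.02. In the tricarboxylic acid cycle 10 of 16 genes were higher and 0 lower in *ivd-1(tm6784)*, led by the 2-oxoglutarate dehydrogenase gene *ogdh-1* at -0.29 ± 0.03 (adjusted p = 3.03e-06), with a median of -0.17. That count fell to 5 without the 3 samples. In glycolysis the *ivd-1(tm6784)* strain had 10 of 19 genes higher, led by the glyceraldehyde-3-phosphate dehydrogenases *gpd-2* (-0.62) and *gpd-3* (-0.60), which are near-identical copies whose reads may be divided between them. The only glycolysis gene called the other way was *hxk-3*, a hexokinase, at 0.17 ± 0.046 (adjusted p = 0.0154). This call was lost under 5 of the alternatives, among them median-of-ratios scaling and leaving out the 3 samples. Among 20 cytosolic tRNA synthetases 11 were higher in *ivd-1(tm6784)* and 0 were lower, with a median of -0.12, and *kars-1*, the lysyl enzyme, was at 282, 292, 267 and 278 FPKM in *bcat-1(hh58)* and 359, 379.9, 380.3 and 374 FPKM in *ivd-1(tm6784)*. The groups were apart for *kars-1*, at -0.42 ± 0.033 (adjusted p = 1.51e-07). The synthetase count was 7 without the 3 samples.

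Of 81 cytosolic ribosomal proteins, 22 (27.2%) were higher in *ivd-1(tm6784)* and 0 were lower, against 6.29% and 13.2% of all tested genes, with a median of -0.15. This result moved with single samples and with the scaling: the count was 8 without *bcat-1(hh58)* replicate 4, 47 without *bcat-1(hh58)* replicate 3, 9 without the 3 samples, 71 after median-of-ratios scaling and 3 after quantile normalization.

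Other amino acid routes differed gene by gene. In tyrosine and tryptophan breakdown 5 of 12 genes (41.7%) were higher in *bcat-1(hh58)* and 0 in *ivd-1(tm6784)*, against 13.2% and 6.29% of all tested genes. The count did not move without any single sample. *hgo-1*, homogentisate dioxygenase of tyrosine breakdown, was at 88.8, 93.3, 85.5 and 88.1 FPKM in *bcat-1(hh58)* and 58.5, 59.9, 56.1 and 62.2 FPKM in *ivd-1(tm6784)*. The strains did not overlap, at 0.58 ± 0.054 (adjusted p = 9.2e-07), and *gst-42*, the next enzyme, differed by 0.57 ± 0.078 (adjusted p = 5.99e-05). Among genes of cysteine and sulfide handling, *cysl-2* was lower in *bcat-1(hh58)* at -1.04 ± 0.19 (adjusted p = 0.000808) and so was the sulfide quinone oxidoreductase *sqrd-1* at -0.98 ± 0.14 (adjusted p = 0.000117), while *cdo-1*, cysteine dioxygenase, was higher at 0.30 ± 0.091 (adjusted p = 0.0254). The *cdo-1* call was lost under 7 of the alternatives, among them median-of-ratios scaling and leaving out the 3 samples. *cbs-1*, cystathionine beta-synthase, was higher in *bcat-1(hh58)* at 0.50, and the S-adenosylmethionine synthetase *sams-3* was lower at -0.33. Of the lysosomal lipases 5 of the 6 tested were higher in *bcat-1(hh58)*, with *lipl-2* at 12.1, 12.7, 15.2 and 10.1 FPKM in *bcat-1(hh58)* and 2.50, 4.75, 5.62 and 3.21 FPKM in *ivd-1(tm6784)* next after *lipl-1*. The groups did not overlap for *lipl-2*, at 1.57 ± 0.26 (adjusted p = 0.000372).

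Genes of innate immunity and detoxification were read against the 13.2% of all tested genes called higher in *bcat-1(hh58)* and the 6.29% called higher in *ivd-1(tm6784)*. Among lysozymes, saposin-like proteins and small antimicrobial peptides 18 of 47 were higher in *bcat-1(hh58)* and 2 in *ivd-1(tm6784)*, with a median of 0.38 and counts of 17 and 0 without the 3 samples. The lysozyme *lys-7* was at 107, 96.3, 201 and 161 FPKM in *bcat-1(hh58)* and 44.9, 41.1, 58.1 and 33.8 FPKM in *ivd-1(tm6784)*, highest in replicates 3 and 4 of *bcat-1(hh58)* and without overlap, at 1.62 ± 0.26 (adjusted p = 0.000292). The lysozyme *lys-5* went the other way, at -1.30 ± 0.29 (adjusted p = 0.00368), a call lost without the 3 samples. Of 116 C-type lectins 27 were higher in *bcat-1(hh58)* and 14 in *ivd-1(tm6784)*. *clec-85*, which overlaps *Y54G2A.40* on the same strand, was at 77.1, 70.2, 128 and 106 FPKM in *bcat-1(hh58)* and 21.7, 27.6, 33.1 and 24.98 FPKM in *ivd-1(tm6784)*. *clec-10* was at 4.82, 4.86, 4.74 and 3.96 FPKM in *bcat-1(hh58)* and 17.1, 21.4, 19.8 and 17.1 FPKM in *ivd-1(tm6784)*. These lectins parted the strains in opposite directions, at 1.78 ± 0.20 (adjusted p = 5.46e-06) and -1.92 ± 0.12 (adjusted p = 3.92e-09). The count of lectins higher in *ivd-1(tm6784)* was 9 without its replicate 4 or without the 3 samples, and the counts in the respective directions were 18 and 17 after quantile normalization.

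Cytochrome P450 enzymes, which oxidize lipids and foreign compounds, were higher in *bcat-1(hh58)* for 24 of 54 genes and lower for 3, with a median of 0.37. *cyp-14A5* was at 161, 62.3, 128 and 111 FPKM in *bcat-1(hh58)* and 17.1, 23.6, 23.3 and 17.9 FPKM in *ivd-1(tm6784)*. Replicate 2 was the lowest of *bcat-1(hh58)* and no value overlapped, at 2.40 ± 0.26 (adjusted p = 4.23e-06). *cyp-13B1* was lower in *bcat-1(hh58)*, at -1.70 ± 0.20 (adjusted p = 1.34e-05). The count of higher genes held without single samples, at 22 to 25. Glucuronosyl transferases went both ways, 18 of 58 higher in *bcat-1(hh58)* and 12 higher in *ivd-1(tm6784)*, with *ugt-31* at 1.82 ± 0.23 (adjusted p = 2.08e-05) opposite to *ugt-53*; their median was 0.09 as deposited and -0.05 after quantile normalization, when the counts were 14 and 15. Without the 3 samples the counts were 15 and 7. Glutathione transferases were higher in *bcat-1(hh58)* for 11 of 39 and lower for 4, among the latter *gst-4*, a reporter gene of oxidative stress that overlaps *dhs-12*, at -0.91 ± 0.10 (adjusted p = 3.49e-06). The count of higher transferases was 7 to 12 without single samples, 8 without the 3 samples and 6 with only the 8 samples of the 2 strains. It was 8 after median-of-ratios scaling and 10 after quantile normalization. The manganese superoxide dismutase *sod-3* was at 7.41, 9.56, 8.51 and 9.44 FPKM in *bcat-1(hh58)* and 3.30, 2.81, 4.61 and 3.92 FPKM in *ivd-1(tm6784)*, without overlap, at 1.16 ± 0.15 (adjusted p = 2.96e-05). Among intestinal and lysosomal proteases 7 of 21 were higher in *bcat-1(hh58)* and 2 in *ivd-1(tm6784)*. *asp-14*, an aspartic protease, was at 321, 290.1, 231 and 238 FPKM in *bcat-1(hh58)* and 110.5, 134, 98.0 and 116 FPKM in *ivd-1(tm6784)*. *cpr-5*, a cathepsin B-like protease, was at 139.9, 82.6, 178 and 142 FPKM in *bcat-1(hh58)* and 505, 575, 548 and 494 FPKM in *ivd-1(tm6784)*. Neither overlapped, and they differed by 1.23 ± 0.22 (adjusted p = 0.000821) and -2.01 ± 0.17 (adjusted p = 3.71e-07).

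F-box proteins bring substrates to ubiquitin ligases, and form one of the large families of the worm genome. Of 228 tested, 64 were higher in *bcat-1(hh58)* and 2 in *ivd-1(tm6784)*, against 13.2% and 6.29% of all genes, and the median was 0.45. Most were low: *fbxa-128* was at 7.42, 2.85, 8.88 and 5.13 FPKM in *bcat-1(hh58)* and 1.27, 2.22, 1.51 and 1.82 FPKM in *ivd-1(tm6784)*, and *fbxa-50* was at 3.43, 1.30, 2.16 and 3.07 FPKM in *bcat-1(hh58)* and 0.279, 0.230, 0.309 and 0.441 FPKM in *ivd-1(tm6784)*. Neither overlapped between the strains, at 1.49 ± 0.24 (adjusted p = 0.000252) and 1.82 ± 0.19 (adjusted p = 4.43e-06). *fbxa-72*, better expressed, went the other way at 30.6, 28.96, 23.8 and 26.97 FPKM in *bcat-1(hh58)* and 55.3, 62.8, 38.6 and 60.6 FPKM in *ivd-1(tm6784)*. Its groups did not overlap either, at -0.95 ± 0.20 (adjusted p = 0.00234), though the call was lost without the 3 samples. The count of F-box genes higher in *bcat-1(hh58)* was 33 without these samples, 39 without *ivd-1(tm6784)* replicate 2, 49 after median-of-ratios scaling and 30 after quantile normalization. The adaptors of the SKP1, MATH and BATH families had 13 of 69 genes higher in *bcat-1(hh58)* and 0 in *ivd-1(tm6784)*, and 8 without the 3 samples. No gene of the proteasome itself was called: 0 of 19 genes of the 19S particle and 0 of 14 of the 20S core passed, with medians of -0.02 for each and with 0 and 2 at an unadjusted limma p under 0.05. Without *bcat-1(hh58)* replicate 2, 1 core gene was called, and after median-of-ratios scaling 2 were. Of the 14 cytosolic heat shock proteins tested 1 was called, *hsp-1*, at -0.17 ± 0.042 (adjusted p = 0.00802). That call was lost after quantile normalization and with only the 8 samples of the 2 strains.

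**Figure D4:**
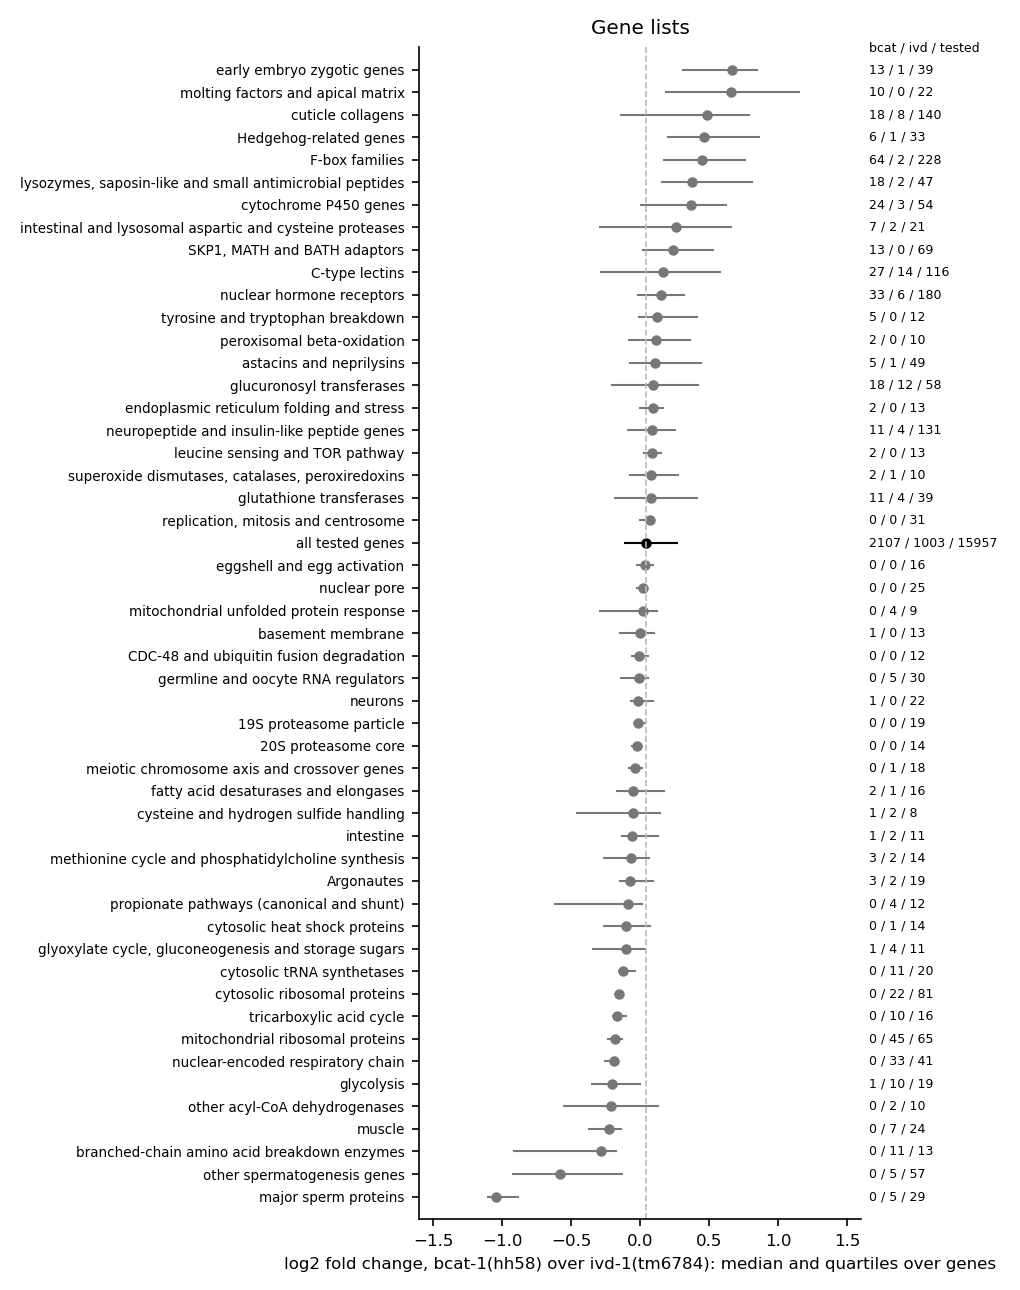
Median (point) and quartiles (line) of the log2 fold change over the tested genes of each list of at least 8 genes, with the numbers called higher in *bcat-1(hh58)*, called higher in *ivd-1(tm6784)* and tested at the right. The dashed line is the median of all tested genes (0.047), with major sperm proteins farthest to the left (-1.04) and early embryo genes farthest to the right (0.667).

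Stage and tissue markers differed between the strains and also between samples of *bcat-1(hh58)*. Major sperm proteins, abundant in sperm, had a summed level of 3566, 1516, 5171 and 2985 FPKM in *bcat-1(hh58)* replicates 1 to 4 and 5282, 7950, 5573 and 5967 FPKM in *ivd-1(tm6784)*. The sums of replicates 1, 2 and 4 in *bcat-1(hh58)* lay well under the lowest *ivd-1(tm6784)* sum, and replicate 3 lay just under it. Of 29 genes 5 (17.2%) were called, all higher in *ivd-1(tm6784)*, against 6.29% of all tested genes, with a median of -1.04. The count was 0 without *bcat-1(hh58)* replicate 2 or without *ivd-1(tm6784)* replicate 2, 0 without the 3 samples and 21 without *bcat-1(hh58)* replicate 3. Of 57 other spermatogenesis genes 5 (8.77%) were higher in *ivd-1(tm6784)*, a share near the 6.29% of all tested genes, with a median of -0.58. The count was 18 without *bcat-1(hh58)* replicate 3 and 1 without the 3 samples. It was 11 after median-of-ratios scaling and 15 after quantile normalization. Vitellogenins, the yolk proteins made by the adult intestine, summed to 6641, 8820, 5037 and 6919 FPKM in *bcat-1(hh58)* replicates 1 to 4 and 5859, 5002, 5395 and 5363 FPKM in *ivd-1(tm6784)*. The samples overlapped, replicate 2 of *bcat-1(hh58)* being the highest and its replicate 3 among the *ivd-1(tm6784)* values. Of 5 vitellogenin genes 3 (60%) were called higher in *bcat-1(hh58)*, against 13.2% of all tested genes. The count was also 3 without the 3 samples, 1 without *bcat-1(hh58)* replicate 2 or 4 or *ivd-1(tm6784)* replicate 2, and 0 after median-of-ratios scaling.

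Genes known from early embryos, which adults carry in the uterus, were higher in *bcat-1(hh58)* for 13 of 39 (33.3%) and lower for 1 (2.56%). The shares of all tested genes were 13.2% and 6.29%. The median of the list was 0.67. Their sums were 194, 248, 179 and 204 FPKM in *bcat-1(hh58)* replicates 1 to 4 and 146, 122, 142 and 137 FPKM in *ivd-1(tm6784)*. The sums did not overlap, but the count higher in *bcat-1(hh58)* was 4 without *ivd-1(tm6784)* replicate 2 and 3 without the 3 samples. It was 6 after median-of-ratios scaling and 3 after quantile normalization. *sdz-24*, one of those called, was at 20.7, 16.1, 27.1 and 20.9 FPKM in *bcat-1(hh58)* and 6.62, 10.1, 10.03 and 7.24 FPKM in *ivd-1(tm6784)*, at 1.27 ± 0.26 (adjusted p = 0.00221). Eggshell genes and genes of replication and mitosis had 0 of 16 and 0 of 31 called by limma, with 1 and 0 at an unadjusted p under 0.05 and 0 called in either list by the other scalings, and without *bcat-1(hh58)* replicate 3 the counts were 3 and 1.

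Cuticle genes of the epidermis did not all go one way. Molting and apical matrix genes, which are switched on when larvae renew their cuticle, summed to 366, 247, 490.4 and 342 FPKM in *bcat-1(hh58)* replicates 1 to 4 and 222, 286, 199 and 232 FPKM in *ivd-1(tm6784)*. Replicates 1, 3 and 4 of *bcat-1(hh58)* were above every *ivd-1(tm6784)* sample, replicate 2 fell among them, and the wild type was lower, at 145.3 to 161. Of 22 genes 10 were higher in *bcat-1(hh58)* and 0 in *ivd-1(tm6784)*, with a median of 0.66 and a count of 15 without *bcat-1(hh58)* replicate 2 and 12 without the 3 samples. *noah-1*, an apical matrix protein, was at 17.6, 9.45, 25.6 and 16.8 FPKM in *bcat-1(hh58)* and 5.53, 9.55, 3.35 and 5.06 FPKM in *ivd-1(tm6784)*. The values overlapped through replicate 2 of both strains, at 1.49 ± 0.28 (adjusted p = 0.000927). Cuticle collagens summed to 62980, 54160, 67340 and 62390 FPKM in *bcat-1(hh58)* replicates 1 to 4 and 66780, 71840, 69080 and 69820 FPKM in *ivd-1(tm6784)*. Replicates 1, 2 and 4 of *bcat-1(hh58)* lay under every *ivd-1(tm6784)* sum and replicate 3 among them. Of 140 collagens 18 (12.9%) were higher in *bcat-1(hh58)* and 8 (5.71%) in *ivd-1(tm6784)*, against 13.2% and 6.29% of all tested genes, so the shares were near the background. The counts were 17 and 2 without the 3 samples, 17 and 18 after median-of-ratios scaling, and 9 and 2 without *ivd-1(tm6784)* replicate 3. With only the 8 samples of the 2 strains the counts were 4 and 13. *col-41* was at 15.3, 4.03, 28.4 and 7.85 FPKM in *bcat-1(hh58)* and 2.02, 3.85, 1.25 and 3.43 FPKM in *ivd-1(tm6784)*. *col-135* was at 6.97, 12.6, 8.53 and 12.4 FPKM in *bcat-1(hh58)* and 39.7, 34.5, 44.2 and 45.2 FPKM in *ivd-1(tm6784)*. They differed in opposite directions without overlap, at 1.96 ± 0.45 (adjusted p = 0.00477) and -1.995 ± 0.20 (adjusted p = 1.6e-06). Among Hedgehog-related genes 6 of 33 (18.2%) were higher in *bcat-1(hh58)* and 1 (3.03%) in *ivd-1(tm6784)*, against 13.2% and 6.29% of all tested genes. The first count was 13 without *bcat-1(hh58)* replicate 2 and as low as 2 without other single samples. The counts were 9 and 0 without the 3 samples.

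Of 24 muscle genes 7 (29.2%) were higher in *ivd-1(tm6784)*, against 6.29% of all tested genes. The sums of the list were 11630, 9331, 12260 and 10910 FPKM in *bcat-1(hh58)* replicates 1 to 4 and 12320, 14400, 12640 and 13090 FPKM in *ivd-1(tm6784)*. The highest *bcat-1(hh58)* sum stayed just under the lowest *ivd-1(tm6784)* sum, the wild type stood at 10520 to 11370, and the count was 1 without *ivd-1(tm6784)* replicate 2 and 0 without the 3 samples. *tnt-3*, a troponin T, was at 39.1, 29.5, 36.3 and 34.5 FPKM in *bcat-1(hh58)* and 50.4, 56.3, 48.4 and 53.8 FPKM in *ivd-1(tm6784)*, at -0.58 ± 0.12 (adjusted p = 0.00281). Among neuron genes 1 of 22 was called, *snb-1*, synaptobrevin, at 0.25 ± 0.051 (adjusted p = 0.00206), a call lost after median-of-ratios scaling. All 24 muscle, 22 neuron, 11 intestine and 30 germline markers were above 0 FPKM in each of the 8 samples. The part of stage and tissue make-up in the other differences was not tested.

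**Figure D5:**
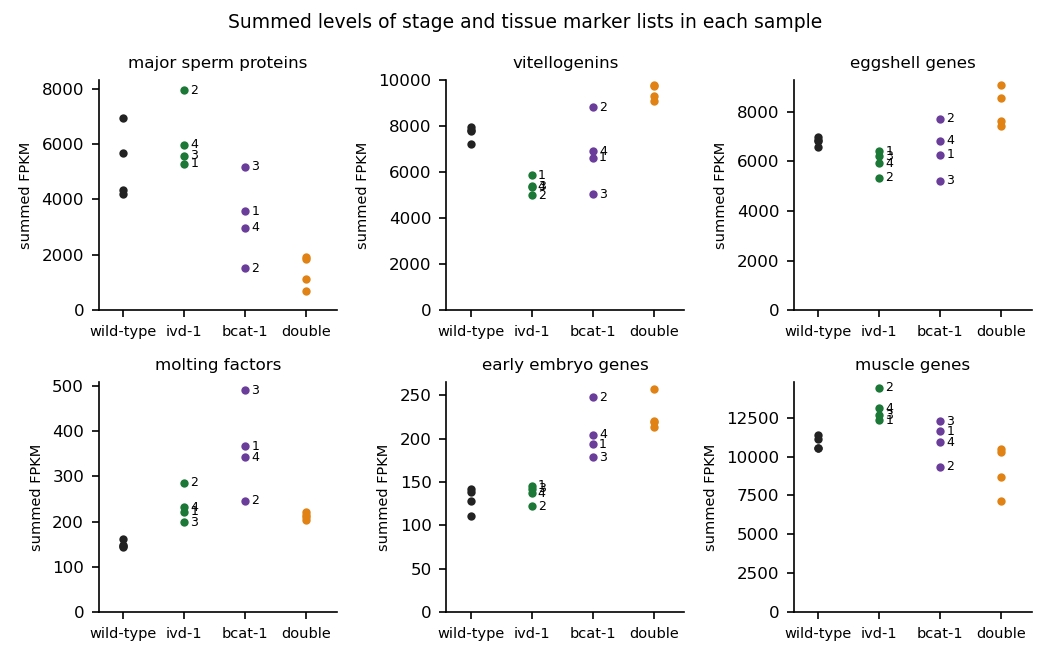
Summed FPKM of 6 marker lists in each sample of 4 strains (double, both alleles together), with replicate numbers beside the single mutant points. Replicates 2 and 3 of *bcat-1(hh58)* lie at opposite ends for major sperm proteins (1516 and 5171) and molting factors (246.7 and 490.4).

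Nuclear hormone receptors and secreted peptides were also compared as classes of regulators. Of 180 receptors 33 (18.3%) were higher in *bcat-1(hh58)* and 6 (3.33%) in *ivd-1(tm6784)*, against 13.2% and 6.29% of all tested genes, with a median of 0.15. After quantile normalization the counts were 16 and 9. *nhr-21* was at 21.1, 13.2, 16.6 and 19.2 FPKM in *bcat-1(hh58)* and 8.39, 10.4, 7.21 and 9.69 FPKM in *ivd-1(tm6784)*, and *nhr-137* was at 6.17, 3.99, 4.51 and 5.36 FPKM in *bcat-1(hh58)* and 13.2, 12.6, 10.2 and 11.8 FPKM in *ivd-1(tm6784)*. Neither overlapped, at 0.93 ± 0.16 (adjusted p = 0.000629) and -1.19 ± 0.14 (adjusted p = 1.71e-05). Of 131 neuropeptide and insulin-like genes 11 (8.4%) were higher in *bcat-1(hh58)* and 4 (3.05%) in *ivd-1(tm6784)*, both under the shares of all tested genes, the former count being 6 without *bcat-1(hh58)* replicate 1 and 17 without its replicate 2. The insulin-like gene *ins-35* was at 4.25, 2.79, 8.19 and 3.96 FPKM in *bcat-1(hh58)* and 1.01, 1.71, 0.804 and 1.14 FPKM in *ivd-1(tm6784)*, against the direction of *ins-12*, at 1.602 ± 0.27 (adjusted p = 0.000458). *F25D1.11* was the only gene listed at 0 in every sample of one single mutant, *ivd-1(tm6784)*, and at 1 FPKM or more in every sample of the other, at 7.49, 3.65, 3.146 and 3.46 FPKM. No fold is given for it.

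The genes that differed were spread over all chromosomes. The share called ranged from 14.5% on chromosome I to 24.2% on X, where 449 were higher in *bcat-1(hh58)* and 86 in *ivd-1(tm6784)*. The share with a 2-fold difference was highest on V, at 5.51%. The share called close to the mutated genes was near that of the same chromosome for *bcat-1* and lower for *ivd-1*: 23.8% within 1 Mb of *bcat-1* against 24.3% on the rest of X, and 13.7% within 1 Mb of *ivd-1* against 19.8% on the rest of IV.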

How the data were processed

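RNA was taken from whole day 1 adults of 5 strains, 4 samples each. The authors demultiplexed reads with CASAVA, aligned them to the *C. elegans* genome and used Cufflinks to estimate FPKM per gene, and the FPKM table is used here as deposited. The build is not given in the sources used here; the positions printed come from the Ensembl release 115 annotation of WBcel235, matched by gene identifier, and the files' own annotation was an earlier release. FPKM keep no read counts, so no counting interval is given; sums of FPKM ranged from 1034751 to 1111257 in *bcat-1(hh58)* and from 1098825 to 1136133 in *ivd-1(tm6784)*, and the relative depth read from low genes from 0.892 to 1.07 and from 0.956 to 1.01. An exact 0 can be a failed estimate, so genes with such zeros beside values of 10 FPKM or more were kept out of the genes named for size.

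log2(FPKM + 0.5) of the 15957 genes at 0.5 FPKM or more in at least 4 samples was fitted in limma 3.58.1 (R 4.3.3; lmFit, contrasts.fit, eBayes with trend) over all 20 samples with strain as the only term, which assumes that the strains share 1 spread. The contrast was *bcat-1(hh58)* minus *ivd-1(tm6784)*, two-sided, with Benjamini-Hochberg adjustment; the script was tested on simulated data. The authors' count-based test could not be repeated on FPKM. Genes were named by rule: the breakdown and propionate genes; the 15 largest in each direction; in each list up to 2 called genes per direction with at least 1 FPKM; and genes at 0 throughout one strain. Gene lists were drawn up by name and described by counts and medians with no test. The contrast, members and lists were chosen with earlier results of these data known. Alternatives were the pseudocount (0.1 or 1), the filter (none, or a mean of 1 FPKM), median-of-ratios scaling, quantile normalization, the 8 samples alone, a replicate term, an adjusted p of 0.01 and leaving out each sample. Leaving out the 3 samples at the ends of the second component, and leaving out the genes with doubtful zeros, were chosen after seeing the data.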

Additional observations from a re-analysis of the deposited data

Results flagged for a closer look

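Among the 335 groups of 4 values examined over the named genes, 14 (4.18%) held a sample whose gap to the next was large against the range of its group; chance alone does so in about 1 in 20 groups. *bcat-1(hh58)* replicate 2 stood apart for 5 genes, at 0.466 FPKM for *acdh-2*, 239.4 for *prdx-3*, 17.2 for *nas-20*, 11.1 for *cnc-7* and 238.9 for *col-142*. Of the other *bcat-1(hh58)* samples, replicate 1 stood apart for *F25D1.11* (7.49 FPKM), replicate 3 for *sqrd-1* (1.82 FPKM) and replicate 4 for *clec-10* (3.96 FPKM). In *ivd-1(tm6784)* the samples were replicate 2 for *rsks-1* (52.02 FPKM) and *col-176* (13.9 FPKM), replicate 3 for *folt-2* (344.8 FPKM) and *ugt-43* (1.18 FPKM), and replicate 4 for *bckd-1A* (106.8 FPKM) and *fat-4* (193.2 FPKM). For *acdh-2* the gap lies among values under 0.5 FPKM, and leaving out each sample did not end the calls of *acdh-2* or *folt-2*.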

How the results depend on the processing

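Counts of called genes stayed within 1.5 times the reported 3110, 2107 and 1003 under both pseudocounts, both filters, the 2 alternatives chosen after seeing the data and every omitted sample, with these exceptions. With only the 8 samples of the 2 strains 1783 genes were called (1145 higher in *bcat-1(hh58)*, 638 higher in *ivd-1(tm6784)*), 1711 of them among the 3110. Several list counts fell, to 34 F-box, 21 respiratory chain, 5 early embryo and 3 molting genes. The balance of the cuticle collagens reversed, with 4 higher in *bcat-1(hh58)* and 13 higher in *ivd-1(tm6784)*. At an adjusted p of 0.01 the counts were 1708, 1117 and 591. Genes higher in *ivd-1(tm6784)* numbered 1534 after median-of-ratios scaling and 1509 after quantile normalization. Without single samples the total ranged from 2392 (without *ivd-1(tm6784)* replicate 3) to 3483 (without *bcat-1(hh58)* replicate 2). Of 158 called named genes 108 kept their call under all 19 alternatives and 50 lost it under at least 1, and 0 reversed. The median of astacins and neprilysins turned from 0.11 to -0.00976 after quantile normalization. Across all tested genes, same-numbered samples of the single mutants did not deviate together (correlations -0.0462, -0.457, -0.147 and 0.0303). The numbers were therefore not read as pairs. Some genes did vary with replicate number: replicate 3 was the lowest of every strain for *ech-6*, *hach-1*, *acdh-1* and *hphd-1*. A fit with the replicate block called 3006 genes (2011 and 995). FPKM without counts limit what can be said of genes near 0.5 FPKM.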
